A study of Macaca mulatta with 81 samples.

Results

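T cells from the blood of rhesus macaques given an allogeneic hematopoietic cell transplant were compared between recipients of FR104 together with Siro and recipients that got no prophylaxis against graft-versus-host disease. The comparison holds 8 of the 81 arrays of the study: the 4 whose labels give the group as FR104.Siro.F and the 4 labelled NoRx.F. Each array is a different animal, so the spread within a group is a spread between animals. The animals were numbers 27, 26, 29 and 28 with FR104 and Siro, and numbers 50, 51, 52 and 53 without prophylaxis. Values are always given in these orders. FR104 is known as an antagonist antibody fragment against CD28. The labels do not spell out Siro, which is read as sirolimus, the mTOR inhibitor. All 8 samples are marked Final, with no day after transplant, and the labels used here give no age, dose or disease score. A day that differs between the groups cannot be told apart from the prophylaxis.

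Further final samples of allogeneic recipients came from 3 animals given FR104 alone (FR104.F: 22, 23 and 24) and 4 given Siro alone (Siro.F: 17, 16, 13 and 18). Another 34 arrays are labelled healthy controls. Some came from animals that also gave a transplant array, among them 28, 53, 22, 16, 13 and 18 of the groups compared here. Together the 4 transplant groups form a layout of neither agent, each alone and both. All samples were cells sorted for CD3, and in such a mixture fewer cells of a type and less RNA per cell cannot be told apart.

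CD28 is the receptor that gives a T cell its second signal beside the antigen receptor. Its ligands CD80 and CD86 on antigen-presenting cells are shared with the inhibitory receptor CTLA4, so an agent that binds CD28 itself leaves CTLA4 free to meet them. Signals from CD28 and from growth-promoting cytokines meet at mTOR, a kinase that drives protein synthesis, glycolysis and cell growth, and sirolimus blocks its first complex through the binding protein FKBP1A. Alloreactive T cells that receive both signals divide, gain cytotoxic granules and leave the naive state.

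The arrays give log2 signals of probe sets, so a difference of 1 is a 2-fold difference. The level of a probe set can be set against itself in other arrays, and not against another gene. Differences below are FR104.Siro.F minus NoRx.F unless another pair is named, given with their standard error (SE), from a limma fit over all 81 arrays with terms for group and batch. A value under 4.65, the 40th percentile of the table, counts as low here, and a difference from a group of low values rests on signal near the bottom of the range. A gene was called at a Benjamini-Hochberg adjusted p under 0.05 over the 11806 genes tested. Animals 28 and 53 also gave a healthy array. All 4 FR104.Siro.F arrays were in batch 4, whereas 3 NoRx.F arrays were in batch 1 and 1 (animal 53) in batch 2, so these groups share no batch. The batch terms are estimated from groups that span batches, among them the 34 healthy controls, of which 5, 10, 13 and 6 lie in batches 1 to 4. For 62.14% of genes an F test between batches among those controls gave a p above 0.95, so those controls differ very little between batches. Whether the values were adjusted for batch before deposit is not given in the sources used here. The fitted difference and the plain difference of means had the same sign for 98.8% of genes, and the largest gap between them among the genes named was 0.055. With controls so alike the batch terms are small, so this closeness does not test for a batch effect between the groups.

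Array medians ran from 5.17 to 5.29 in FR104.Siro.F and from 5.20 to 5.30 in NoRx.F. Signals of the spiked-in control transcripts reached 12.13 in FR104.Siro.F animal 29, above the highest healthy control (11.53). The difference between 3' and 5' actin probe sets, a sign of RNA quality, was 0.06 to 1.21 in FR104.Siro.F and 0.61 to 1.14 in NoRx.F. CD3D, CD3E and CD3G were not analysed here. Among other T cell genes, CD5 lay between 10.14 and 10.68 in NoRx.F and between 10.18 and 10.42 in FR104.Siro.F, and the antigen receptor kinase ZAP70 between 12.44 and 12.63 and between 12.07 and 12.21.

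The arrays also held RNA of other cells. The myeloid genes S100A8 and S100A9 ran from 9.02 to 13.42 and from 8.39 to 12.98 in NoRx.F, and from 9.39 to 11.80 and from 9.14 to 11.47 in FR104.Siro.F, above every healthy control in all arrays but NoRx.F animal 51. Over all 16 tested markers of monocytes and neutrophils the log2 of the summed signal was 10.62 to 14.49 in NoRx.F, 11.02 to 12.93 in FR104.Siro.F and 9.22 to 11.86 in healthy controls. CD14 lay between 6.10 and 6.46 without prophylaxis and between 5.76 and 6.76 with it. Sums over 8 natural killer (NK) cell markers were 11.30 to 11.53 and 11.13 to 11.64, and over 11 B and plasma cell markers 9.73 to 9.84 and 9.46 to 9.73. Erythroid and platelet markers summed to 11.52 to 13.67 and to 9.51 to 13.33. The groups overlapped in these sums, except that those of B and plasma cell markers met at 9.73. The brightest markers weigh most in a sum. Mean log2 levels did not overlap for NK markers (7.12 to 7.51 in NoRx.F and 6.50 to 7.10 in FR104.Siro.F). They also did not for B and plasma cell markers (5.78 to 5.95 and 5.43 to 5.62), but did for the myeloid and the erythroid and platelet markers.

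Recipients of FR104 and Siro had T cells with far higher signals for the cytokine feedback genes SOCS2 and CISH and far lower ones for granzymes B and H, T-bet (TBX21) and the mitosis genes CCNB2 and MKI67 than recipients without prophylaxis. In all, 2319 genes were called (19.6%), 773 higher (6.55%) and 1546 lower (13.1%) in FR104.Siro.F, of which 292 and 308 differed by 2-fold or more. The shares of 6.55% and 13.1% stand beside every count of list members called in this comparison below. The deposited values of the 4 and 4 arrays did not overlap for 2924 genes (24.8%), with FR104.Siro.F above for 1065 (9.02%) and below for 1859 (15.7%). The median difference over all genes was -0.08. Leaving out 1 array at a time gave 1862 (without FR104.Siro.F animal 28) to 2487 calls (without FR104.Siro.F animal 26). A fit with no batch term called 3749.

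SOCS2, a suppressor of cytokine signalling that is itself induced by STAT5, had the largest rise (probe set MmugDNA.24296.1.S1_s_at). It read 5.47, 5.20, 4.88 and 6.87 in the NoRx.F arrays and 10.89, 9.89, 10.23 and 10.65 in the FR104.Siro.F arrays, against 4.18 to 8.57, with a median of 6.50, in healthy controls. Every FR104.Siro.F array was above every NoRx.F and every healthy array. The difference was 4.81 ± 0.77, or 28.0-fold (limma adjusted p = 6.55e-06). PTPN13, a large tyrosine phosphatase, read 4.72, 4.30, 4.01 and 4.98 without prophylaxis and 8.34, 8.48, 8.13 and 7.98 with FR104 and Siro. Here the healthy range was 6.99 to 8.84, with a median of 7.73, so the untreated arrays stood below it and the treated ones within it. NoRx.F animals 51 and 52 were low for PTPN13. PTPN13 rose by 3.72 ± 0.52, or 13.2-fold (limma adjusted p = 4.31e-07). The Wnt pathway regulator DACT1 read 5.53, 6.39, 6.10 and 6.55 in NoRx.F and 9.82, 9.84, 8.25 and 10.41 in FR104.Siro.F, with healthy controls at 7.44 to 9.63.

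AATK, a kinase first described in apoptosis, gave 8.20, 8.19, 7.74 and 8.93 in NoRx.F and 11.42, 11.75, 11.16 and 11.58 in FR104.Siro.F, which placed all treated arrays above the healthy maximum of 10.31. It rose by 3.21 ± 0.38 (limma adjusted p = 1.01e-08), but its only other probe set differed by -0.10, so the rise rests on 1 of 2 probe sets. CA6, a secreted carbonic anhydrase, also ended above every healthy control, at 12.83, 12.31, 13.21 and 12.70 against 9.65, 9.43, 9.87 and 10.70 without prophylaxis. FAM241A read 7.32, 7.71, 6.96 and 7.58 and 10.14, 10.20, 10.26 and 9.92, again with the treated arrays above the healthy maximum of 9.65. The Rac GTPase-activating protein CHN1, the metalloprotease ADAM12 and the matrix protein MATN2 completed the 10 largest rises. CHN1 read 8.45, 9.19, 6.11 and 8.74, ADAM12 8.17, 8.79, 6.73 and 7.64 and MATN2 7.24, 6.86, 4.01 and 5.94 in FR104.Siro.F, with animal 29 lowest for each gene. NoRx.F arrays lay at 4.75 to 5.45, 4.19 to 5.89 and 2.94 to 3.58, so that even animal 29 stayed above them, but all 4 NoRx.F values of MATN2 are low. Fold changes over the 7 genes after the top 3 ran from 6.68 for FAM241A to 9.25 for AATK.

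**Figure D1:**
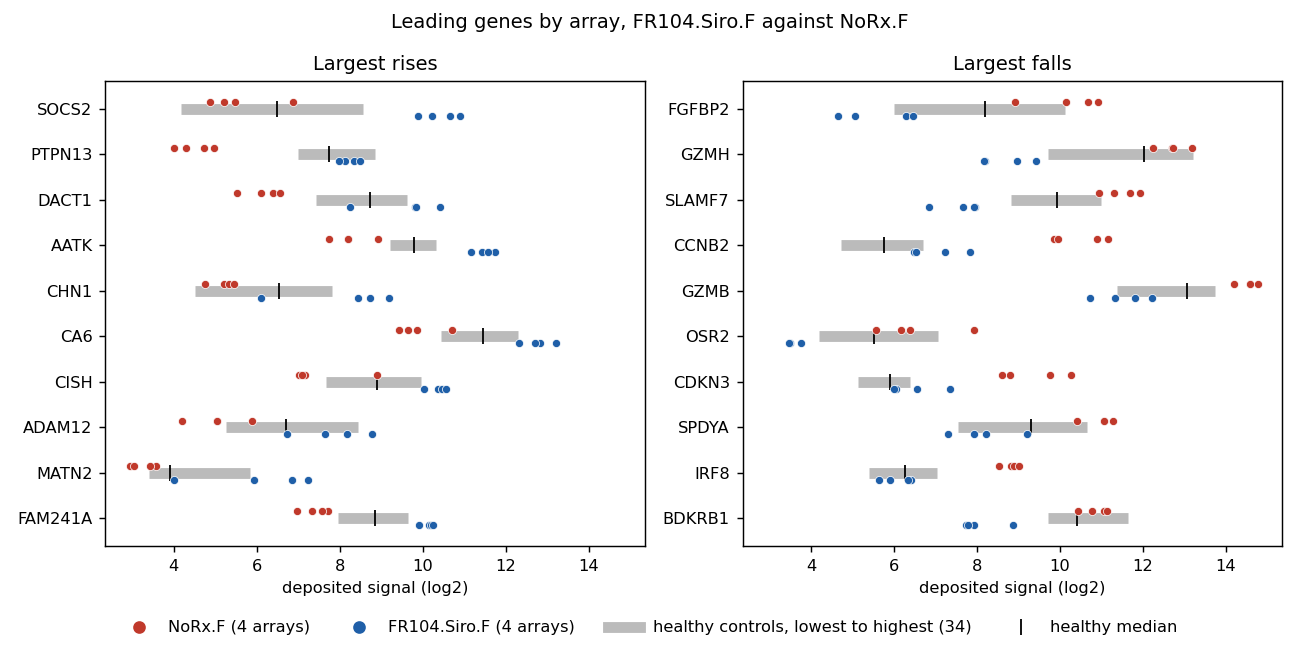
Log2 signal of the 10 genes with the largest rise and the 10 with the largest fall in FR104.Siro.F against NoRx.F, 1 point per array (4 and 4), with the range of the 34 healthy controls as a grey bar. No gene shown has overlapping groups, which the rule for choosing them required, and SOCS2 and AATK lie above the healthy range in FR104.Siro.F while PTPN13 lies below it in NoRx.F.

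Among the falls, FGFBP2, a secreted protein of cytotoxic lymphocytes, was first (probe set MmugDNA.17256.1.S1_at). It read 10.92, 10.14, 10.68 and 8.92 in NoRx.F and 5.07, 6.29, 4.64 and 6.46 in FR104.Siro.F, with healthy controls at 6.01 to 10.13, with a median of 8.20. The groups were separated by a gap, and 2 treated arrays fell below the lowest healthy control. FGFBP2 fell by 4.55 (SE 0.87), or 23.5-fold (limma adjusted p = 9.80e-05). Granzyme H (GZMH) came next, at 12.25, 13.18, 12.69 and 12.73 and 8.20, 9.41, 8.16 and 8.97, and SLAMF7, a receptor of activated cytotoxic cells, at 11.29, 11.69, 11.92 and 10.94 and 7.66, 6.84, 7.94 and 7.93. Each treated array was below the lowest healthy control for both genes, which was 9.71 for GZMH and 8.82 for SLAMF7. The differences were -4.02 ± 0.84 and -3.86 ± 0.64 (limma adjusted p = 2.99e-04 and 1.02e-05).

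CCNB2, a cyclin of mitosis, and CDKN3, a phosphatase that acts on cyclin-dependent kinases, were the cell cycle genes among the 10 largest falls. CCNB2 read 11.15, 9.86, 10.89 and 9.95 without prophylaxis and 7.23, 7.84, 6.48 and 6.52 with it, and the healthy maximum was 6.69. Both groups were thus mostly above healthy controls, with treated animals 29 and 28 inside their range. The other falls of this size were granzyme B (GZMB), the zinc finger factor OSR2, SPDYA, which activates cyclin-dependent kinases, the transcription factor IRF8 and the bradykinin receptor BDKRB1, at 6.89-fold for BDKRB1 to 8.07-fold for GZMB. OSR2 read 3.49, 3.75, 3.48 and 3.47 in the treated arrays, all below 4.65, the value under which a probe set counts as low here, and below every healthy control. BDKRB1 read 7.74, 7.92, 8.86 and 7.78 against 10.44, 10.77, 11.06 and 11.13, so animal 29 was highest among the treated.

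The genes that dampen and report cytokine signalling rose in part. Of 17 listed, 13 could be tested, and 6 were called higher (SOCS2, CISH, SOCS3, PIM1, BCL2 and OSM) and 1 lower (PTPN6), with a median of 0.18 beside -0.08 over all genes. With the mean of a gene's probe sets in place of the brightest, that median was 0.60, and with the spike-in signal as a covariate 0.04. CISH, which binds cytokine receptors and is a STAT5 target, read 7.16, 7.01, 7.10 and 8.89 in NoRx.F and 10.37, 10.47, 10.57 and 10.04 in FR104.Siro.F. The lone high value without prophylaxis, in animal 53, was still below all treated arrays. CISH rose by 2.80 ± 0.47 (limma adjusted p = 1.29e-05) and, like SOCS2, ended above the healthy maximum of 9.96.

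SOCS3, which restrains STAT3 signalling downstream of IL-6 family receptors, read 4.39, 4.52, 4.11 and 3.93 and 6.30, 5.22, 6.61 and 6.71, against a healthy range of 3.90 to 4.75. The treated arrays were above that range and the untreated ones inside it. Its 4 NoRx.F values are low, and the difference on the log2 scale was 1.95 ± 0.35 (limma adjusted p = 4.42e-05). PIM1, a survival kinase, went from 10.60 to 11.10 to 11.71 to 12.09 (1.13 ± 0.20, limma adjusted p = 2.41e-05). BCL2, which blocks mitochondrial apoptosis, read 7.62, 6.99, 7.37 and 7.44 without prophylaxis and 8.56, 8.46, 8.65 and 8.88 with it, and all treated arrays exceeded the highest healthy control (8.06). SOCS1 read 0.18 higher, with a limma adjusted p of 0.654.

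Upstream of these genes lie the cytokine receptors and their signal chain. Of 16 common gamma chain and JAK-STAT genes tested (24 listed), IL6R was called higher and IL10RA lower, and the median was 0.03. IL6R, the IL-6 binding chain, read 8.27, 8.08, 7.31 and 8.31 in NoRx.F and 10.28, 9.88, 10.32 and 10.15 in FR104.Siro.F. Healthy controls ran from 9.59 to 11.05, so the untreated arrays were below all of them and the treated ones among them. The difference was 2.15 ± 0.37 (limma adjusted p = 1.88e-05). IL10RA, the IL-10 binding chain, went the other way, from 10.51, 10.67, 10.83 and 11.26 to 9.43, 9.60, 10.01 and 8.93 (-1.35 ± 0.26, limma adjusted p = 8.95e-05). IL6ST, the signalling chain shared by the IL-6 family, differed by 1.57 ± 0.60, which missed the threshold (limma adjusted p = 0.0565), and STAT5A and STAT5B by 0.52 and 0.15. Without FR104.Siro.F animal 26, 3 genes of this list were called higher.

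Among naive and quiescence genes 6 of 16 tested (23 listed) were called higher in treated recipients and none lower, against 6.55% higher among all genes. The other 10 did not pass, 4 of the 16 differences were below 0, and the median was 0.54. In 9 of the 16 every FR104.Siro.F array was above every NoRx.F array, beside 9.02% of all genes. TCF7, the transcription factor of naive and stem-like T cells, read 11.20, 11.43, 11.36 and 11.18 without prophylaxis and 12.92, 12.56, 12.95 and 12.99 with it. The untreated arrays were below the healthy range of 12.42 to 13.42 and the treated ones inside it. TCF7 rose by 1.56 ± 0.26 (limma adjusted p = 1.50e-05). Of 3 tested probe sets of TCF7 only 1 was called, and the smallest difference was 0.36. CCR7, the receptor that takes T cells into lymph nodes, read 8.39, 8.85, 8.10 and 8.30 and 10.25, 8.98, 10.77 and 10.95, and here animal 26 was close to the untreated arrays. CCR7 rose by 1.80 ± 0.53 (limma adjusted p = 0.0107).

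KLF7, a zinc finger factor, rose by 2.20 ± 0.36, from 6.78 to 7.58 in NoRx.F to 8.82 to 9.92 in FR104.Siro.F (limma adjusted p = 1.08e-05). TXNIP, which limits glucose uptake and is high in resting cells, rose by 1.5 ± 0.25, from 11.03 to 11.81 to 12.81 to 13.18 (limma adjusted p = 1.59e-05). FOXP1, which holds naive T cells in quiescence, lay at 10.95 to 11.16 in NoRx.F and at 11.77 to 12.28 in FR104.Siro.F. SATB1, a chromatin organiser of T cells, rose by 1.28 ± 0.37 (limma adjusted p = 0.00834). Others of the list did not pass the test, among them KLF2 at 0.41 ± 0.17 (limma adjusted p = 0.0875) and FOXO1 at 0.35 ± 0.28 (limma adjusted p = 0.415). As a score, the mean of the list in an array minus the mean of healthy controls, the naive genes stood at -0.91, -1.0, -0.90 and -0.86 in NoRx.F and at -0.25, -0.36, -0.29 and -0.13 in FR104.Siro.F. Without NoRx.F animal 53 the median was 0.67 and 8 members were called higher.

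Cytotoxic genes had the lowest median of the 31 lists. Of 19 tested (25 listed) 11 were called lower and none higher, where 13.1% of all genes were called lower, and all 19 differences were below 0. The median was -1.86 with the brightest probe set of each gene and -1.01 with the mean of a gene's probe sets, under which 9 were called lower. Without NoRx.F animal 53 the median was -2.03 and the count again 11. Granzyme B, which enters target cells and starts their death, read 14.57, 14.59, 14.77 and 14.19 in NoRx.F and 10.72, 12.21, 11.81 and 11.33 in FR104.Siro.F. All untreated arrays were above the healthy maximum of 13.73, and the treated ones lay from below the healthy minimum of 11.38 to inside the range. It fell by 3.01 (SE 0.61, limma adjusted p = 1.97e-04).

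CST7, an inhibitor of granule proteases, showed the same separation, at 12.05, 12.38, 12.18 and 12.21 and 9.70, 9.89, 9.43 and 9.13 (-2.69 ± 0.50, limma adjusted p = 6.39e-05). NKG7 and granulysin (GNLY), both granule proteins, fell by 2.44 and 2.31 on the log2 scale (limma adjusted p = 5.93e-04 and 0.00294). PLEK read 8.94, 8.77, 8.98 and 9.25 and 6.70, 7.16, 7.13 and 5.82 (-2.28 ± 0.61, limma adjusted p = 0.00457). CTSW, HOPX and SYTL2 were the other members called. Granzyme A (GZMA) differed by -0.19 ± 0.46 (limma adjusted p = 0.836) and the killer receptor ligand FASLG by -1.01 ± 0.63 (limma adjusted p = 0.286), so neither passed. The score of the list was 0.52, 0.64, 0.72 and 0.72 in NoRx.F and -1.22, -0.90, -1.21 and -1.22 in FR104.Siro.F, with healthy controls from -0.96 to 0.63.

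NK cells share much of this program, and their markers were read beside it. None of 16 receptors of the NK type (21 listed) was called by limma in either direction (1 at an unadjusted p under 0.05), with a median of -0.44. Among the 8 NK-defining genes CLIC3, low in all treated arrays, was called lower (-0.51 ± 0.15, limma adjusted p = 0.00859). The others were not, with KLRF1 at 5.74 to 9.01 in NoRx.F and 6.21 to 7.65 in FR104.Siro.F. The NK-defining score was -0.40, -0.46, -0.28 and -0.07 without prophylaxis and -0.59, -0.48, -1.08 and -0.89 with it, so the treated arrays lay below the untreated ones, narrowly for animal 26. What part NK cells had in the cytotoxic difference was not tested.

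**Figure D2:**
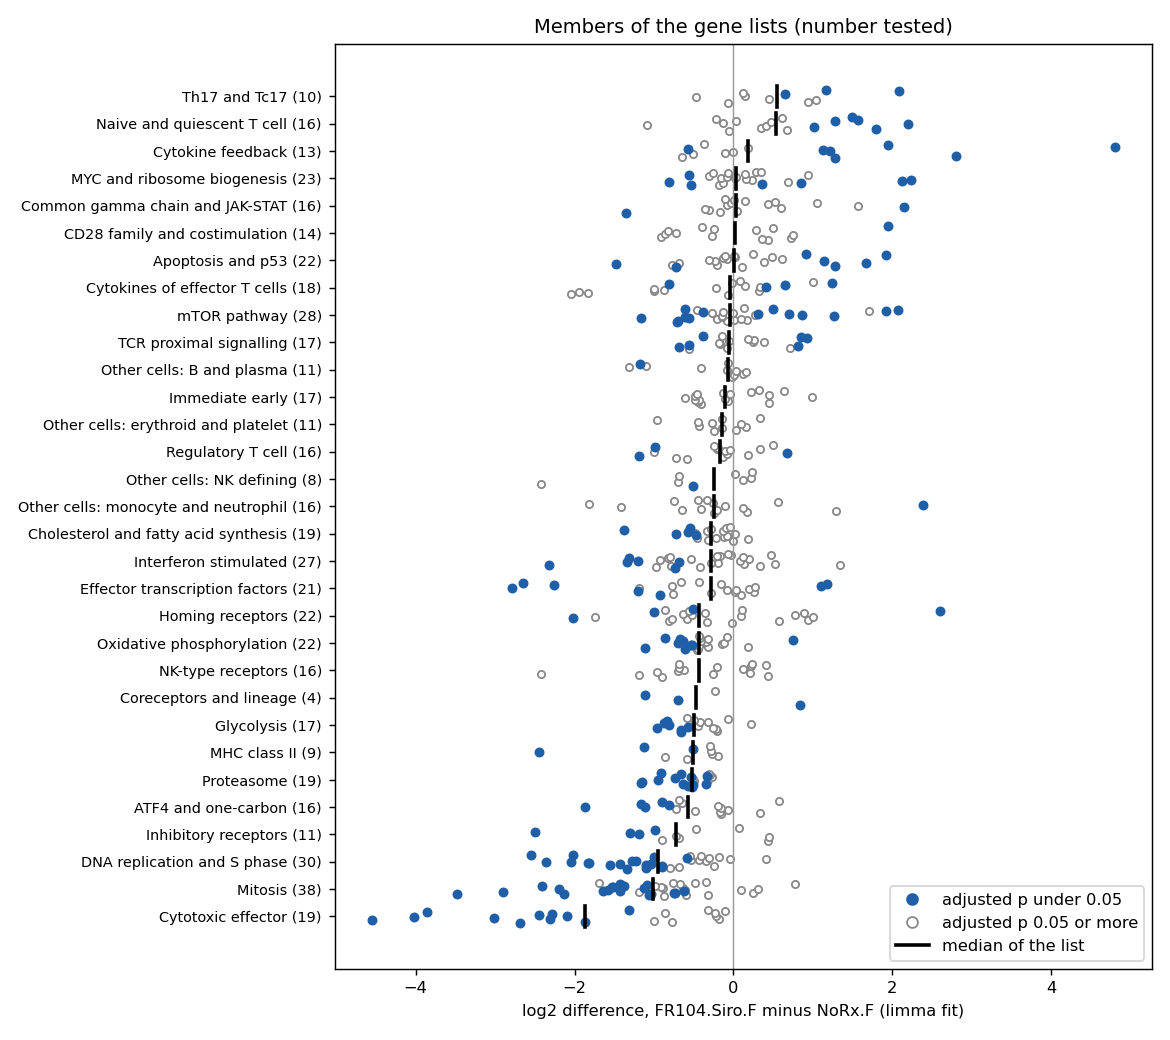
Log2 difference, FR104.Siro.F minus NoRx.F, of each tested member of 31 gene lists, 1 point per gene, filled where the limma adjusted p was under 0.05, with the list median as a bar. The cytotoxic list has the lowest median (-1.86) and no member above 0, followed by mitosis (-1.01) and DNA replication (-0.95), while the naive and Th17 lists have the highest (0.54 and 0.55). IL26, IL22 and IL17A of the Th17 list are low (under 4.65) in NoRx.F.

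Transcription factors of effector T cells moved both ways. Of 21 tested (24 listed), 5 were called lower (TBX21, IRF8, BATF, ZBTB32 and ID3) and 2 higher (RUNX1 and TOX), with a median of -0.29. Over all genes the shares were 13.1% and 6.55%. Without FR104.Siro.F animal 28 the lower calls were 3. TBX21 (T-bet), the master factor of the type 1 and cytotoxic program, read 10.32, 10.02, 10.47 and 10.78 in NoRx.F and 8.16, 8.71, 7.77 and 7.94 in FR104.Siro.F (probe set MmuSTS.4557.1.S1_at). The groups did not overlap, and 3 treated arrays were below every healthy control (8.55 to 11.20). It fell by 2.26 (SE 0.61, limma adjusted p = 0.00471). Its relative EOMES read 8.23, 9.42, 8.68 and 9.02 and 8.44, 7.71, 8.12 and 8.08, which overlapped, for a difference of -0.76 with a 95% interval of -1.68 to 0.16 (limma adjusted p = 0.263).

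IRF8, induced on strong activation, read 8.83, 8.52, 8.90 and 9.0 without prophylaxis, above the healthy maximum of 7.04, and 6.40, 6.34, 5.64 and 5.90 with it, inside the healthy range (-2.79 ± 0.43, limma adjusted p = 2.49e-06). ZBTB32, a repressor found in activated lymphocytes, read 8.21, 7.64, 7.99 and 8.01 and 5.64, 5.76, 4.97 and 5.05, with healthy controls at 4.55 to 5.75 (-2.64 ± 0.40, limma adjusted p = 2.34e-06). TOX, known from T cells under lasting stimulation, rose by 1.18 ± 0.23 (limma adjusted p = 1.27e-04), from 8.36 to 9.10 to 9.74 to 10.19, while healthy controls had a median of 9.89. RUNX1 rose by 1.11 ± 0.21 with its brightest probe set (limma adjusted p = 6.82e-05) and by 0.20 over the mean of its probe sets, where it did not pass (limma adjusted p = 0.147).

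Inhibitory receptors fell where they were called. Among 11 tested (14 listed), LAG3, HAVCR2 (TIM-3), TIGIT and ENTPD1 (CD39) were lower, beside 13.1% of all genes, and the median was -0.72. Without FR104.Siro.F animal 29, FR104.Siro.F animal 28 or NoRx.F animal 52 the count was 2, and without NoRx.F animal 53 it was 3 with a median of -0.94. LAG3, which binds MHC class II, read 10.73, 11.44, 11.47 and 10.75 in NoRx.F and 8.63, 8.99, 8.89 and 7.89 in FR104.Siro.F, while no healthy control passed 7.84. All 8 arrays were thus above healthy controls and the treated ones closer to them. LAG3 fell by 2.50 (SE 0.46, limma adjusted p = 5.45e-05). HAVCR2 read 6.50, 6.19, 6.28 and 7.27 and 4.95, 5.17, 5.72 and 5.25 (-1.30 ± 0.32, limma adjusted p = 0.00233). TIGIT differed by -0.98 ± 0.33 (limma adjusted p = 0.0245). TIGIT missed the threshold without NoRx.F animal 51 (-0.84) or 52 (-0.92), without FR104.Siro.F animal 29 (-0.82) or 28 (-0.87), and with the spike-in signal as a covariate (-0.85). ENTPD1, at -1.19 ± 0.45 (limma adjusted p = 0.0482), missed it in 10 alternatives, between -0.91 with the mean of probe sets and -1.27 without NoRx.F animal 50.

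Of the coreceptors, CD4 was higher and both chains of CD8 were lower. CD4 read 6.67, 6.28, 6.63 and 6.46 without prophylaxis and 7.39, 6.74, 7.60 and 7.77 with it, with all treated arrays above the others (0.84 ± 0.27, limma adjusted p = 0.0197). It missed the threshold without FR104.Siro.F animal 29 or 28 (0.77 and 0.71) and with the spike-in signal, highest in animal 29, as a covariate (0.72). CD8A gave 13.05, 13.13, 13.12 and 12.99 and 12.56, 12.36, 12.37 and 12.22 (-0.70 ± 0.24, limma adjusted p = 0.0266), and without FR104.Siro.F animal 28 it missed the threshold at -0.65. CD8B read 11.24, 11.77, 11.22 and 11.38 and 10.45, 10.29, 10.29 and 10.18 (-1.12 ± 0.40, limma adjusted p = 0.0391). Its call was lost without any 1 of FR104.Siro.F animals 26, 29 and 28 (-1.12, -1.12 and -1.08) or NoRx.F animals 51 and 53 (-1.0 and -1.14), and with the spike-in covariate (-1.10). Over the mean of probe sets CD8A and CD8B differed by -0.62 and -0.81 and neither was called. How far the ratio of CD4 to CD8 cells bears on the cytotoxic genes was not tested.

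CD28 is the target of FR104. It read 7.42, 6.84, 6.51 and 5.99 in NoRx.F and 6.96, 7.01, 6.96 and 7.42 in FR104.Siro.F, a difference of 0.36 with a 95% interval of -0.37 to 1.09 (limma adjusted p = 0.555). CTLA4, its inhibitory counterpart, read 8.70, 7.06, 7.84 and 7.31 and 7.13, 7.35, 6.97 and 6.52, a difference of -0.72 with an interval of -1.72 to 0.27 (limma adjusted p = 0.34). The groups overlapped for both genes. In the list of 14 tested costimulatory genes (18 listed) 1 was called, TNFSF8, the CD30 ligand, which rose from 6.62, 6.04, 5.72 and 5.99 to 8.26, 7.32, 7.84 and 8.78 (1.95 ± 0.47, limma adjusted p = 0.0017). Arrays did not overlap for 4 of the 14, 2 above and 2 below, beside 9.02% above and 15.7% below among all genes. ICOS, a CD28 relative induced on activation, differed by -0.82 ± 0.34 (limma adjusted p = 0.0828).

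Antigen receptor signalling genes moved in both directions, 3 of 17 up and 3 down (27 listed). RASGRP1, which links the receptor to Ras, went from 10.69, 10.66, 10.78 and 11.22 to 11.73, 11.89, 11.73 and 11.70 (0.93 ± 0.14, limma adjusted p = 1.51e-06). DGKA, which breaks down the diacylglycerol that activates RASGRP1, rose as well (0.81 ± 0.27, limma adjusted p = 0.0225). Its relative DGKZ fell, from 8.70, 8.90, 8.83 and 8.87 to 8.22, 8.55, 8.24 and 8.22 (-0.56 ± 0.15, limma adjusted p = 0.00388). CSK, the kinase that holds Src family kinases inactive, fell by 0.68 (SE 0.12, limma adjusted p = 2.67e-05). TXK was called higher and ZAP70 lower. None of 17 immediate early genes, the first to respond to a stimulus, was called by limma (5 at an unadjusted p under 0.05), with a median of -0.11 (0.19 with the spike-in signal as a covariate, where 1 was called higher).

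Many proliferation genes were lower in treated than in untreated recipients. Of 38 mitosis genes tested (58 listed) 20 were called lower and none higher, and 34 differences were below 0, with a median of -1.01. Of 30 genes of DNA replication (43 listed) 18 were called lower and none higher, and 29 were below 0, with a median of -0.95. For all genes the share called lower was 13.1%. MKI67 (Ki-67), present in dividing cells, read 10.32, 9.38, 10.06 and 9.49 in NoRx.F and 8.04, 8.04, 6.40 and 7.23 in FR104.Siro.F, with healthy controls at 5.90 to 7.38, with a median of 6.34. The groups did not overlap, and treated animals 29 and 28 reached the healthy range. MKI67 fell by 2.41 (SE 0.46, limma adjusted p = 9.95e-05). CCNB1, which starts mitosis with CDK1, read 9.92, 8.42, 9.24 and 8.54 and 7.07, 7.53, 6.87 and 6.17, and CENPA, the histone of the centromere, 8.06, 7.42, 7.90 and 8.02 and 6.33, 6.43, 6.07 and 6.09. Both were lower in every treated array (-2.14 ± 0.38 and -1.64 ± 0.27, limma adjusted p = 2.72e-05 and 1.07e-05).

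Of the MCM helicase, which opens DNA for replication, 4 genes fell. MCM4 read 11.25, 10.11, 11.11 and 9.86 without prophylaxis and 8.32, 8.77, 7.94 and 7.88 with it (-2.36 ± 0.39, limma adjusted p = 8.44e-06). Of 4 tested probe sets of MCM4 only 1 was called, and their differences ran from -2.36 to -0.09. MCM2, MCM3 and MCM5 differed by -1.83, -1.82 and -2.04, at limma adjusted p of 1.27e-04, 6.17e-05 and 2.49e-06. The other tested probe set of MCM5 differed by 0.31. The animals of a group differed in the same order in both lists. Mitosis scores were 1.88, 1.17, 1.87 and 1.41 in NoRx.F and 0.62, 0.96, 0.26 and 0.24 in FR104.Siro.F, and replication scores 1.79, 1.04, 1.67 and 1.12 and 0.53, 0.84, 0.17 and 0.12. Animals 27 and 26 thus scored higher in both than 29 and 28. Healthy controls had mitosis scores of -0.28 to 0.42 and replication scores of -0.20 to 0.26, so animals 29 and 28 lay inside both ranges. The myeloid score, given for comparison, was 1.31, 0.11, 1.45 and 0.56 without prophylaxis and 1.00, 1.18, 0.63 and 0.23 with it, and whether it bears on these genes was not tested.

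**Figure D3:**
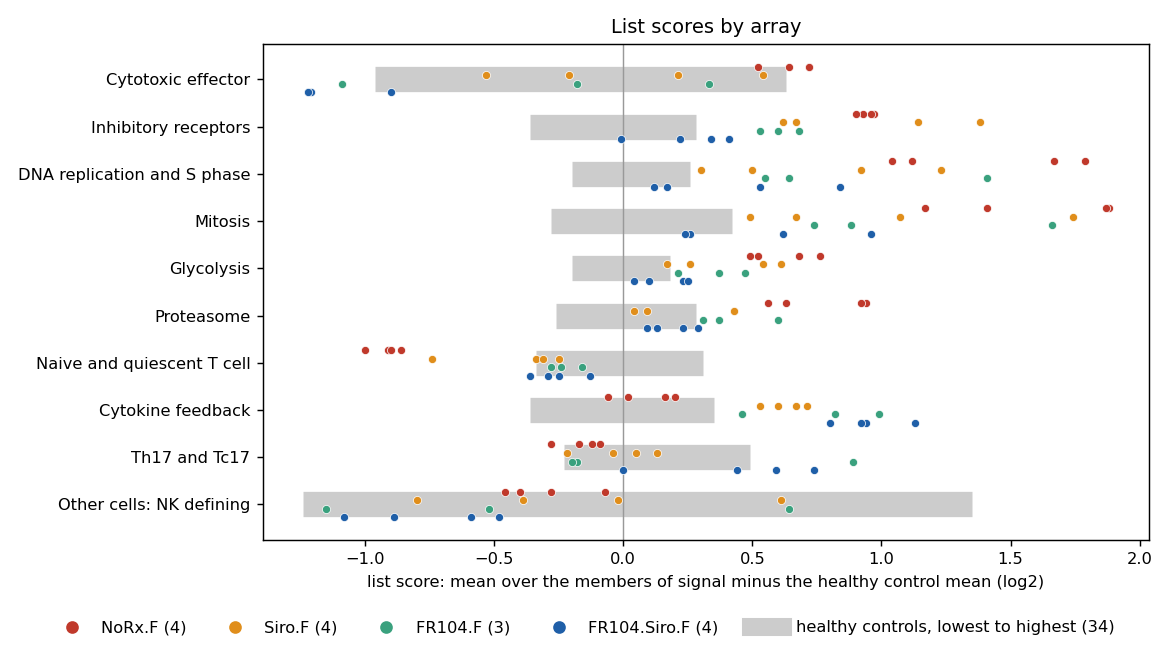
Mean log2 signal of the members of 10 gene lists in each array, relative to the mean of healthy controls, for NoRx.F, Siro.F, FR104.F and FR104.Siro.F (1 point per array), with the range of the 34 healthy controls in grey. FR104.Siro.F arrays have cytotoxic scores of -1.22 to -0.90 and feedback scores of 0.80 to 1.13, and the NoRx.F arrays mitosis scores of 1.17 to 1.88.

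Genes of mTOR signalling were called in both directions: 7 of 28 tested (35 listed) were higher and 7 lower, beside 6.55% and 13.1% of all genes. The median was -0.04 (0.03 without FR104.Siro.F animal 26). MTOR itself read 8.64, 8.55, 8.77 and 8.59 in NoRx.F and 8.52, 8.67, 8.48 and 8.35 in FR104.Siro.F, a difference of -0.14 with a 95% interval of -0.41 to 0.13 (limma adjusted p = 0.52). FKBP1A, the protein that sirolimus binds, differed by 0.17 with an interval of -0.19 to 0.54 (limma adjusted p = 0.568). Its means of 4.425 in NoRx.F and 4.594 in FR104.Siro.F are low (under 4.65). Restraints of the pathway were among the rises and also, with INPP5D and TSC2, among the falls. SESN3, a sestrin that holds the first mTOR complex in check, rose from 5.02, 5.13, 4.66 and 5.25 to 7.39, 7.16, 6.62 and 7.14 (2.07 ± 0.44, limma adjusted p = 3.99e-04), with all treated arrays above the healthy maximum of 5.62. SESN1, a p53 target of the same family, rose from 7.45, 6.91, 6.67 and 8.23 to 8.68, 8.88, 10.33 and 9.13 (1.93 ± 0.39, limma adjusted p = 1.87e-04).

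PIK3IP1, an inhibitor of PI3 kinase, TSC1, which restrains mTOR, the PI3 kinase subunit PIK3R1 and RICTOR, a subunit of the second mTOR complex, were also called higher. RPS6, a ribosomal protein that the pathway phosphorylates, rose by 0.31 ± 0.05, a small shift with no overlap between 13.97 to 14.10 and 14.29 to 14.39 (limma adjusted p = 7.39e-06). INPP5D (SHIP1), a phosphatase that removes the product of PI3 kinase, fell from 9.91, 10.14, 9.99 and 10.15 to 9.12, 9.06, 8.64 and 8.74 (-1.16 ± 0.19, limma adjusted p = 1.22e-05). AKT1, its substrate AKT1S1, MLST8, TSC2, LAMTOR1 and RRAGC were the other genes called lower, by 0.38 (RRAGC) to 0.71 (AKT1) on the log2 scale.

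Glycolysis is a pathway that mTOR supports in dividing T cells. Of 17 genes tested (23 listed), 7 were called lower, against 13.1% of all genes, and none higher. The median was -0.50, and with the mean of probe sets 4 were called lower with a median of -0.28. LDHA, which turns pyruvate into lactate, read 13.57, 13.35, 13.45 and 13.13 and 12.71, 12.71, 12.34 and 12.49 (-0.81 ± 0.14, limma adjusted p = 2.29e-05). Healthy controls reached 12.33, so all 8 arrays were above that. GAPDH gave 11.71, 11.10, 11.60 and 11.05 and 10.38, 10.46, 10.45 and 10.45 (-0.96 ± 0.22, limma adjusted p = 7.19e-04), and PFKP, which commits sugar to glycolysis, -0.87 ± 0.22 (limma adjusted p = 0.00266). ENO1 differed by -0.66 ± 0.12 with its brightest probe set (limma adjusted p = 2.53e-05), and by -0.35 over the mean of its probe sets, which did not pass (limma adjusted p = 0.247).

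Serine and one-carbon metabolism and its ATF4-linked transporters gave 5 lower calls and no higher among 16 tested (24 listed). The median was -0.57, and 13.1% of all genes were called lower. That list moved with single animals: the median was -0.38 without FR104.Siro.F animal 29, -0.39 without 28 (3 lower) and -0.77 without 26. It was -0.28 with the mean of probe sets and -0.35 with the spike-in signal as a covariate. PHGDH, the first enzyme of serine synthesis, read 8.46, 8.05, 8.59 and 7.67 in NoRx.F and 5.88, 6.49, 6.78 and 6.21 in FR104.Siro.F, without overlap (-1.86 ± 0.37, limma adjusted p = 1.49e-04). SHMT2 and MTHFD1, which carry one-carbon units, fell by 1.17 and 1.12 on the log2 scale (limma adjusted p = 7.24e-04 and 0.00171). The glutamine transporter SLC1A5 differed by -0.89 ± 0.30 (limma adjusted p = 0.0259) and missed the threshold without FR104.Siro.F animal 28 (-0.86) or NoRx.F animal 53 (-0.72).

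Cholesterol and fatty acid synthesis gave 5 lower calls of 19 (28 listed), beside 13.1% of all genes, with a median of -0.28. The count was 2 without FR104.Siro.F animal 28. PMVK and FDPS, enzymes of the mevalonate pathway, differed by -1.38 ± 0.25 and -0.72 ± 0.14 (limma adjusted p = 5.33e-05 and 1.66e-04). SREBF2, the factor that turns this pathway on, differed by -0.54 ± 0.16 (limma adjusted p = 0.0131), and was not called without FR104.Siro.F animal 28 (-0.44) or over the mean of its probe sets (-0.33). Fatty acid synthase (FASN) differed by -0.47 ± 0.15 (limma adjusted p = 0.0179) and missed the threshold without that animal (-0.42) or without NoRx.F animal 51 (-0.38).

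Of 22 genes of oxidative phosphorylation (31 listed), 8 were called lower and 1, NDUFV2, higher, with a median of -0.43. Here and for the proteasome the shares over all genes were 13.1% lower and 6.55% higher. ATP5IF1, the inhibitor of the mitochondrial ATP synthase, read 10.42, 10.45, 10.54 and 10.14 and 9.25, 9.50, 9.27 and 9.11, and the treated arrays but 1 lay in the healthy range of 8.80 to 9.48 (-1.11 ± 0.15, limma adjusted p = 3.02e-07). SDHB and NDUFS3, subunits of respiratory complexes, differed by -0.68 ± 0.14 and -0.63 ± 0.14 (limma adjusted p = 2.73e-04 and 4.15e-04). UQCRC1 differed by -0.86 ± 0.15 (limma adjusted p = 2.53e-05), and by -0.35 over the mean of its probe sets, where it was not called. The proteasome, which degrades tagged proteins and cuts antigens, had 13 of 19 tested members lower (30 listed), none higher and all 19 differences below 0, with a median of -0.52. PSMB2, a core subunit, read 11.55, 11.10, 11.46 and 11.07 and 10.13, 10.44, 10.10 and 10.01 (-1.15 ± 0.16, limma adjusted p = 4.64e-07). The other tested probe set of PSMB2 differed by 0.23. PSMB10, a subunit of the immunoproteasome, differed by -1.17 ± 0.22 (limma adjusted p = 6.70e-05), PSMB6 by -0.95 ± 0.14 and PSMD1 by -0.66 ± 0.12 (limma adjusted p = 1.39e-06 and 6.17e-05).

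MYC drives growth and ribosome production. It read 8.78, 8.75, 8.45 and 8.86 in NoRx.F and 10.96, 10.71, 10.69 and 11.40 in FR104.Siro.F, all treated arrays above all untreated ones (2.23 ± 0.42, limma adjusted p = 8.74e-05). MYB, a factor of immature and stem-like lymphocytes, rose from 7.22, 6.95, 6.74 and 7.14 to 9.24, 9.29, 8.38 and 9.63 (2.12 ± 0.46, limma adjusted p = 4.89e-04), past the healthy maximum of 7.83. MXD4, which competes with MYC for its partner MAX, fell by 0.82 (SE 0.19, limma adjusted p = 0.00148). Calls in their list went both ways: of 23 tested in the list (26 listed) 4 were higher (MYC, MYB, GNL3 and FBL) and 3 lower (MXD4, BOP1 and POLR1A), with a median of 0.04. POLR1A, the large subunit of RNA polymerase I, differed by -0.56 ± 0.15 (limma adjusted p = 0.00636).

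Th17 and Tc17 cells are lymphocytes that make IL-17 family cytokines. Of 10 genes of this type tested (15 listed) 3 were called higher and none lower, with a median of 0.55, and without FR104.Siro.F animal 26 the count was 1. The share of all genes called higher was 6.55%. IL26 read 3.17, 3.04, 3.16 and 2.88 in NoRx.F and 6.14, 6.43, 3.56 and 4.44 in FR104.Siro.F, with healthy controls at 2.66 to 3.90. Treated animals 27 and 26 stood far above the rest and animal 29 was within the healthy range. All 4 NoRx.F values and those of animals 29 and 28 are low, and IL26 differed by 2.08 ± 0.53 (limma adjusted p = 0.00266). IL22, low in all but animal 26, differed by 0.65 ± 0.21 (limma adjusted p = 0.0183) and missed the threshold without animal 26 (0.56) and over the mean of its probe sets (0.79). RORA, a factor of this lineage, differed by 1.17 ± 0.38 (limma adjusted p = 0.0212), and by 0.94 without that animal and 1.06 without NoRx.F animal 52, both without a call. Among the 8 arrays, IL26 and IL22 exceeded the filter value of 4.65 only in the treated group, so their calls are no support for a rise of the list. IL17A read 3.46, 3.59, 3.70 and 3.70 and 4.03, 4.18, 3.87 and 4.22, which did not overlap. Its values are low (under 4.65) in all 8 arrays, and it differed by 0.45 with an interval of 0.01 to 0.89 that is not adjusted (limma adjusted p = 0.149).

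FOXP3, the defining factor of regulatory T cells, read 4.66, 5.18, 4.73 and 4.73 without prophylaxis and 4.76, 4.67, 5.65 and 4.98 with it, a difference of 0.18 with a 95% interval of -0.27 to 0.63 (limma adjusted p = 0.642). Of 16 tested (18 listed) IKZF4 was called higher and TIGIT and ENTPD1 lower, which the inhibitory receptor list also holds. IKZF4 (Eos) lay at the threshold, at 0.68 ± 0.25 (limma adjusted p = 0.05), and was lost in 11 alternatives. Without NoRx.F animal 50 it was 0.57, without animal 52 0.63 and without animal 53 0.67. Without FR104.Siro.F animals 27, 26 and 29 it was 0.63, 0.68 and 0.65.

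Effector cytokines gave 3 higher calls (LTB, IL22 and IL2) and 1 lower (IL4) among 18 tested (22 listed), and 1 higher without FR104.Siro.F animal 26. LTB, a lymphotoxin that shapes lymphoid tissue, went from 11.84, 12.18, 11.54 and 12.20 to 13.19, 13.29, 13.11 and 13.14 (1.24 ± 0.25, limma adjusted p = 1.87e-04). IFNG, the type 1 cytokine, read 6.61, 6.33, 5.18 and 6.82 and 5.59, 6.72, 4.24 and 4.88 and overlapped, a difference of -0.88 with an interval of -2.32 to 0.57 (limma adjusted p = 0.448). IL4, the type 2 cytokine, was low (under 4.65) in all 8 arrays and differed by -0.81 ± 0.24 (limma adjusted p = 0.0122). The IL2 probe set differed by 0.41 ± 0.15 (limma adjusted p = 0.0414). Its call was lost in 7 alternatives, among them the mean of probe sets (0.16), FR104.Siro.F animals 27, 26 and 28 left out (0.39, 0.38 and 0.41) and NoRx.F animals 50, 51 and 52 left out (0.40, 0.39 and 0.43).

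Among 22 homing receptors (30 listed) 3 were called lower and 1 higher, shares near those of all genes (13.1% and 6.55%), with a median of -0.43 (-0.30 with the mean of probe sets, where 1 was called lower). CXCR3, which leads type 1 effector cells into inflamed tissue, read 9.65, 9.41, 9.71 and 9.0 in NoRx.F, above every healthy control (8.71), and 7.50, 7.60, 7.44 and 7.20 in FR104.Siro.F. The treated arrays were in the lower part of the healthy range (-2.02 ± 0.32, limma adjusted p = 5.97e-06). LPAR6, a receptor for lysophosphatidic acid, rose from 8.61, 8.42, 8.76 and 9.76 to 11.61, 10.95, 11.44 and 11.98 (2.60 ± 0.45, limma adjusted p = 1.84e-05). ITGB2, the beta chain of LFA-1, differed by -1.01 ± 0.25 (limma adjusted p = 0.00206), and by -0.46 over the mean of its probe sets without a call. SELPLG, a ligand of selectins, differed by -0.51 ± 0.17 (limma adjusted p = 0.0254) and missed the threshold without FR104.Siro.F animal 29 (-0.43) or NoRx.F animal 52 (-0.46), with the mean of probe sets (-0.28) and with the spike-in covariate (-0.44).

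Interferon-stimulated genes were called lower for 6 of 27 tested (35 listed), beside 13.1% of all genes, with a median of -0.28 and none higher. The count was 3 without NoRx.F animal 52. ISG20, a nuclease that acts on viral RNA, read 12.01, 11.94, 12.52 and 11.82 and 10.82, 11.11, 10.93 and 10.69 (-1.20 ± 0.22, limma adjusted p = 5.96e-05). IRF7, which amplifies the interferon response, read 9.47, 9.40, 9.30 and 9.45 and 8.73, 8.78, 8.76 and 8.66, and the treated arrays were below every healthy control (8.88 to 9.85). It differed by -0.69 ± 0.22 (limma adjusted p = 0.0168). IFI27 varied widely, at 11.20, 10.79, 12.24 and 10.93 and 7.96, 10.36, 9.29 and 8.23 (-2.32 ± 0.73, limma adjusted p = 0.0169). Its call was lost without FR104.Siro.F animal 27 (-1.99) or 28 (-2.08) or NoRx.F animal 52 (-2.02). BST2, which tethers budding virus, differed by -0.74 ± 0.22 (limma adjusted p = 0.0134), and by -0.60 over the mean of its probe sets without a call.

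Calls among survival genes went both ways. Of 22 apoptosis and p53 genes tested (29 listed), BCL2, BIRC3, CDKN1B, SESN1 and ZMAT3 were called higher and BAX and BCL2L11 lower. BCL2L11 (BIM), which opposes BCL2, read 10.91, 11.40, 11.62 and 11.70 in NoRx.F and 9.98, 10.45, 8.99 and 10.33 in FR104.Siro.F (-1.48 ± 0.30, limma adjusted p = 2.23e-04). The healthy maximum was 10.47, so the untreated arrays were above all controls and the treated ones inside or below their range. CDKN1B (p27), which stops the cell cycle, rose from 9.24, 8.82, 9.34 and 9.72 to 10.35, 10.69, 10.51 and 10.16 (1.14 ± 0.22, limma adjusted p = 1.41e-04). BAX, which opens mitochondria, fell by 0.72 on the log2 scale (limma adjusted p = 0.021).

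Antigen presentation genes of MHC class II, which activated macaque T cells also carry, gave 3 lower calls among 9 tested and all 9 differences were below 0. The share of all genes called lower was 13.1%. RFXANK, needed to transcribe the class II genes, read 8.76, 8.78, 8.58 and 8.38 and 7.55, 7.92, 7.25 and 7.40 (-1.12 ± 0.19, limma adjusted p = 2.16e-05). IFI30, a reductase that unfolds antigens and is also high in myeloid cells, read 9.50, 9.19, 9.82 and 8.84 and 7.37, 7.55, 6.14 and 6.72 (-2.45 ± 0.50, limma adjusted p = 2.16e-04). RFX5 differed by -0.50 ± 0.16 (limma adjusted p = 0.0206) and was not called without NoRx.F animal 53 (-0.37) or with the spike-in covariate (-0.43). Among 16 myeloid markers (19 listed) LCN2 alone was called, from 4.06, 3.92, 4.11 and 4.25 to 5.72, 7.76, 7.43 and 5.10 (2.39 ± 0.50, limma adjusted p = 2.60e-04). Animals 26 and 29 had the highest LCN2, and all NoRx.F values are low. The other tested probe set of LCN2 differed by 0.12. Of the 11 B and plasma cell markers tested (16 listed) MZB1 was called lower (-1.17 ± 0.29, limma adjusted p = 0.00189). The mean B and plasma score was 0.09 to 0.25 in NoRx.F and -0.27 to -0.08 in FR104.Siro.F, without overlap, beside class II scores of 0.23 to 0.76 and -0.50 to 0.04. MS4A1 (CD20), a defining B cell gene, read 4.66 to 4.81 and 3.30 to 4.25 (limma adjusted p = 0.199). The part of B cells in the class II values was not tested. Of 11 erythroid and platelet markers (16 listed) none was, by limma or at an unadjusted p under 0.05.

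Both groups were then set against the 34 healthy controls. These comparisons share their controls, so their values are given side by side only. NoRx.F differed from healthy controls in 4181 genes (35.4%), 20% higher and 15.4% lower, and FR104.Siro.F in 1187 (10.1%), of which 343 were higher (2.91%) and 844 lower (7.15%). Without prophylaxis 34 of 38 mitosis genes were called higher and with FR104 and Siro 10. For DNA replication the counts were 24 and 5 of 30, for glycolysis 12 and 3 of 17, for the proteasome 18 and 2 of 19, and for oxidative phosphorylation 16 and 0 of 22 (median 0.55 and 0.10). In oxidative phosphorylation 2 treated differences had an unadjusted p under 0.05. Of the naive genes 10 of 16 were called lower without prophylaxis and 2 with it.

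Cytotoxic and cytokine feedback genes had another layout. Cytotoxic genes were called higher for 10 of 19 in NoRx.F and lower for 1, and in FR104.Siro.F 7 were called lower and none higher, with medians of 0.64 and -0.88. GZMH was 0.64 ± 0.57 in NoRx.F (limma adjusted p = 0.419) and -3.39 ± 0.62 in FR104.Siro.F (limma adjusted p = 1.54e-04). TBX21 was 0.30 ± 0.41 (limma adjusted p = 0.614) and -1.95 ± 0.45 (limma adjusted p = 0.00223). FGFBP2 was 2.02 ± 0.59 above healthy controls and -2.54 ± 0.64 against them (limma adjusted p = 0.00476 and 0.00597). The cytokine feedback list had 3 higher in NoRx.F (median 0.08) and 7 higher in FR104.Siro.F (median 1.05). SOCS2 was -0.94 ± 0.52 without prophylaxis (limma adjusted p = 0.161) and 3.87 ± 0.57 with it (limma adjusted p = 3.09e-06). PTPN13, in contrast, was -3.26 ± 0.35 and 0.46 ± 0.38 (limma adjusted p = 1.33e-11 and 0.527).

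**Figure D4:**
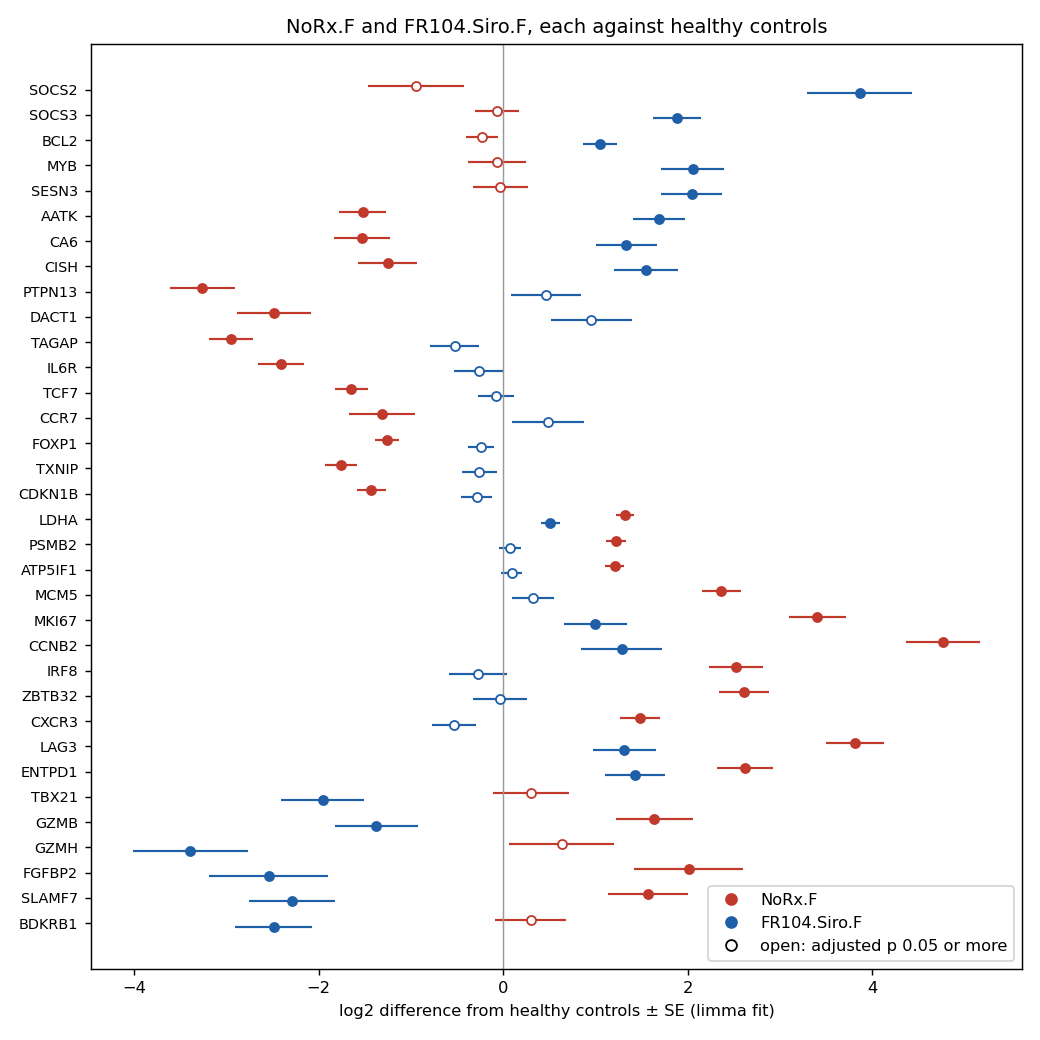
Log2 difference from the 34 healthy controls (mean ± SE of the limma fit) of 34 genes in NoRx.F and in FR104.Siro.F, both set against the same controls. SOCS2, CISH and AATK lie above 0 in FR104.Siro.F (3.87, 1.55 and 1.69) and below 0 in NoRx.F, while PTPN13 and TCF7 lie near 0 in FR104.Siro.F and at -3.26 and -1.64 in NoRx.F.

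What Siro added to FR104 was asked within batch 4, where both groups lie. FR104.Siro.F and FR104.F differed in 1 gene (0.00847%), PCDH8, by limma, and in 876 at an unadjusted p under 0.05. PCDH8, a protocadherin, read 5.81, 4.69, 5.36 and 3.86 with both agents. It lay between 2.58 and 3.01 in the 11 arrays of NoRx.F, Siro.F and FR104.F and at 2.35 to 3.51 in healthy controls. Final arrays of other regimens, among them the Siro combination labelled Bela.Siro.F, were not compared here. Among the arrays given, a level above 4.65 was seen in 3, all of FR104.Siro.F, so within them PCDH8 exceeded the filter value only through that group. The difference from FR104.F was 2.12 ± 0.29 (limma adjusted p = 5.00e-06). Other fits called 13 genes (only the 2 groups and healthy controls), 4 (mean of probe sets), 2 (renewed quantile normalization) and 0 (only the 2 groups with no batch term, where PCDH8 had a limma adjusted p of 0.379).

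With 4 arrays against 3 the intervals were wide. SOCS2 read 9.64, 9.38 and 8.30 with FR104 alone, and the combination was 1.31 higher, with an unadjusted 95% interval of -0.04 to 2.66. FGFBP2 read 7.53, 7.64 and 9.18 and was -2.50 with an interval of -4.02 to -0.98, and SLAMF7 read 8.24, 9.52 and 9.83 and was -1.60 with -2.71 to -0.50. TBX21 read 8.25, 9.68 and 10.23 (-1.24, interval -2.30 to -0.18) and MKI67 9.08, 8.02 and 8.44 (-1.09, interval -1.89 to -0.28). None of these passed after adjustment over all genes (limma adjusted p = 0.674, 0.495, 0.5, 0.62 and 0.556). The 3 FR104.F animals were unlike each other in the cytotoxic genes: GZMH read 6.58, 9.93 and 12.07, GZMB 10.02, 12.96 and 13.47, and the cytotoxic score was -1.09, -0.18 and 0.33. For CISH, TCF7 and TAGAP the combination was 0.08 (-0.74 to 0.89), 0.06 (-0.40 to 0.52) and -0.04 (-0.66 to 0.58) against FR104 alone. List medians against FR104.F were -0.74 for cytotoxic, -0.62 for mitosis and -0.40 for DNA replication genes, with no member called by limma and 7, 19 and 11 members at an unadjusted p under 0.05.

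What FR104 added to Siro was asked against Siro.F, with which FR104.Siro.F shares no batch. Limma called 154 genes (1.3%), 38 higher (0.322%) and 116 lower (0.983%), and 1677 had an unadjusted p under 0.05. This count leaned on single animals: without Siro.F animal 18 it was 17, and without FR104.Siro.F animal 26 it was 258. The count was 801 with no batch term, 83 with only the 2 groups and 78 with the actin signal as a covariate. Among the list members 4 of 21 effector transcription factors and 2 of 19 cytotoxic genes were called lower.

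IRF8 read 7.39, 9.02, 8.22 and 9.33 with Siro alone and 6.40, 6.34, 5.64 and 5.90 with both agents, without overlap (-2.46 ± 0.42, limma adjusted p = 6.81e-04). SLAMF7 read 8.89, 11.32, 10.13 and 11.22 with Siro alone (-2.77 ± 0.62, limma adjusted p = 0.015). Its call was lost without Siro.F animal 16 (-2.45) or 18 (-2.47). EOMES read 9.75, 9.83, 10.61 and 11.00 in Siro.F, above all 4 FR104.Siro.F arrays (-2.21 ± 0.45, limma adjusted p = 0.00593), and missed the threshold without animal 18 (-1.95). SOCS3 read 3.91, 4.38, 4.84 and 4.38 in Siro.F, near the healthy range and mostly low, and FR104.Siro.F was 1.81 ± 0.35 higher (limma adjusted p = 0.00473). PLEK (-2.24) and CLSPN, a checkpoint protein of replication (-2.15), were the other large falls. Their calls were lost without several single animals, with the values nearest 0 at -1.95 for PLEK without FR104.Siro.F animal 28 and -1.55 for CLSPN without Siro.F animal 18.

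Among the rises against Siro.F, AUTS2, a regulator of transcription, read 7.75, 6.96, 7.95 and 7.10 with Siro alone and 9.48, 9.21, 9.35 and 10.12 with both (2.11 ± 0.52, limma adjusted p = 0.0282). DNM3, a dynamin, read 5.82, 6.05, 5.42 and 4.98 and 7.65, 7.33, 8.43 and 7.43 (2.13 ± 0.48, limma adjusted p = 0.016), and PCDH8 was 2.13 ± 0.33 higher. MATN2 and IL26 were 2.57 and 2.15 higher. AUTS2 missed the threshold without FR104.Siro.F animal 28 (1.91) or Siro.F animals 16 or 18 (1.95 and 1.98), DNM3 without FR104.Siro.F animal 29 (1.89) or Siro.F animal 18 (1.91), and IL26 without FR104.Siro.F animals 27 or 26 (1.82 and 1.73) or Siro.F animal 18 (2.12). MATN2 lost its call without any 1 of 6 animals, at 2.16 (without FR104.Siro.F animal 27) to 2.59. SOCS2 was 2.47 higher than with Siro alone, with an unadjusted interval of 0.95 to 3.99 (limma adjusted p = 0.0838), and CISH 0.27 (-0.65 to 1.19) and TCF7 0.16 (-0.36 to 0.68).

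Each agent alone was set against NoRx.F in the same fit. FR104.F was higher in 3.54% and lower in 4.13% of genes, and Siro.F higher in 5.39% and lower in 6.68%. These comparisons share their NoRx.F arrays, so the values of a gene are given side by side.

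The 4 groups were last fitted for an interaction, the effect of both agents less the sum of each alone. It was called for 32 genes (0.271%), 30 below 0 (0.254%) and 2 above (0.0169%), and 1273 had an unadjusted p under 0.05. In 28 of the 32 the interaction had the opposite sign to the difference between both agents and none. A shift of the NoRx.F arrays moves these values in opposite directions, and a shift of the FR104.Siro.F arrays in the same direction. The share of opposite signs over all genes is not given here, so no conclusion is drawn from this count. The count was 52 with no batch term, 11 with only these groups, 8 with the mean of probe sets and 4 with the spike-in covariate. It was 1 without FR104.F animal 23 and 167 without NoRx.F animal 53.

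CISH was 2.53 ± 0.38 higher than NoRx.F with Siro alone, 2.73 ± 0.49 with FR104 alone and 2.80 with both, an interaction of -2.46 ± 0.56 (limma adjusted p = 0.0307). Its Siro.F arrays read 10.19, 10.25, 9.68 and 10.16 and its FR104.F arrays 10.64, 10.54 and 9.68, overlapping those with both agents. TAGAP, a GTPase-activating protein of T cells, gave 1.92, 2.46 and 2.42 (interaction -1.96 ± 0.42, limma adjusted p = 0.0197). AATK gave 2.49, 2.63 and 3.21 (-1.91 ± 0.45, limma adjusted p = 0.039). TCF7 gave 1.40, 1.51 and 1.56 (-1.34 ± 0.32, limma adjusted p = 0.039), and TOX 1.34, 1.22 and 1.18 (-1.38 ± 0.28, limma adjusted p = 0.0118). For none of these 5 genes did the combination differ from either agent alone at the threshold, which does not show that the levels were equal.

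EOMES was different, at 1.45 with Siro alone, 0.32 with FR104 alone and -0.76 with both (-2.54 ± 0.55, limma adjusted p = 0.0197). GPR183, a receptor for oxysterols that guides lymphocytes, gave 1.31, 1.46 and 0.78 (-1.99 ± 0.48, limma adjusted p = 0.0411). The interactions above 0 were ATP5IF1, which was lower with either agent and with both (-1.07, -0.80 and -1.11), and PCDH8, at 0.06, 0.07 and 2.19. All 9 genes lost the call without FR104.F animal 23: -2.33 for CISH, -1.86 for TAGAP, -1.69 for AATK, -1.32 for TCF7, -1.35 for TOX, -2.43 for EOMES, -1.90 for GPR183, 0.71 for ATP5IF1 and 2.00 for PCDH8. With the mean of probe sets all but PCDH8 were not called either, with TAGAP at -1.01 and AATK at -0.86.

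**Figure D5:**
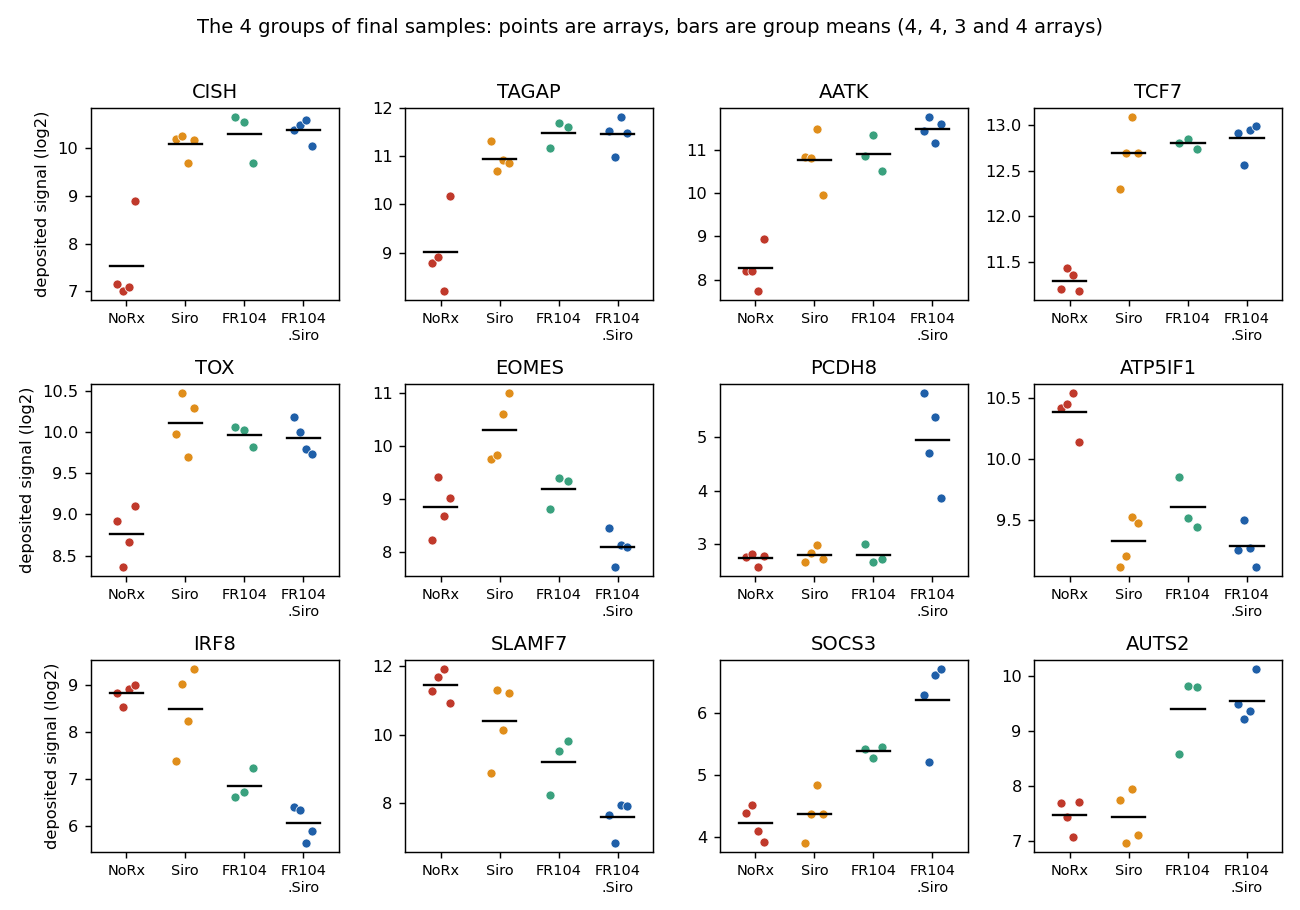
Log2 signal by array of 12 genes in NoRx.F, Siro.F, FR104.F and FR104.Siro.F (4, 4, 3 and 4 arrays), 1 point per array, with group means as bars. CISH and TCF7 are above NoRx.F with either agent and with both, SLAMF7 and IRF8 are lowest with both, and PCDH8 is raised with both alone (3.86 to 5.81).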

How the data were processed

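The deposited table holds log2 values per probe set, made by the authors with RMA in affy, per the submitters' processing notes, which give no versions. Any batch adjustment is not given in the sources used here. Of 52865 probe sets, 24969 carry 1 gene name, updated by gene ID. The brightest probe set on average was kept per gene (14132 genes), and a gene entered the test (11806 did) if 2 or more arrays exceeded 4.65, the 40th percentile of the table. The log2 values of all 81 arrays were fitted with limma 3.58.1 (lmFit, eBayes with a trend, group and batch terms, 62 residual degrees of freedom) in R 4.3.3, with statmod 1.5.0 for the animal block. The arrays came from 50 animals, and outside the block fit they were taken as independent. The fit was tested on simulated data. The 31 lists (706 genes, 517 tested) and the genes compared were chosen with earlier results of these data known.

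Genes named were the 10 largest rises and falls called without overlap of arrays, up to 4 called members per list with the smallest adjusted p, a given set that holds SOCS2, PTPN13, FGFBP2, TBX21, CD28 and MTOR, and the 5 largest called rises and falls of the other 3 comparisons, with LOC symbols passed over. Other list members were named after their values were seen. Alternatives were no batch term, subsets of groups, no filter, the mean of probe sets, renewed quantile normalization, the animal as a block, quality covariates and each array left out. Intervals are 95% and unadjusted. The number of arrays limits the precision.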

Additional observations from a re-analysis of the deposited data

Results flagged for a closer look

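In 13 of 249 groups of 4 arrays examined, 1 array stood apart from the other 3 by Dixon's 95% criterion, where chance gives about 1 in 20. CISH was 8.89 in NoRx.F animal 53 (others 7.01 to 7.16) and 9.68 in Siro.F animal 13 (others 10.16 to 10.25). FR104.Siro.F animal 26 stood apart in 7 genes: OSR2 at 3.75 (others 3.47 to 3.49), TCF7 at 12.56 (12.92 to 12.99), RASGRP1 at 11.89 (11.70 to 11.73), DGKZ at 8.55 (8.22 to 8.24), ENO1 at 12.89 (12.73 to 12.75), POLR1A at 7.02 (6.62 to 6.63) and RFX5 at 8.59 (8.36 to 8.4). Other FR104.Siro.F arrays did so once each: animal 29 in BDKRB1 at 8.86 (7.74 to 7.92), animal 27 in GAPDH at 10.38 (10.45 to 10.46) and animal 28 in CD28 at 7.42 (6.96 to 7.01). FOXP3 was 5.18 in NoRx.F animal 51 (others 4.66 to 4.73).

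The effect of Siro was called different with and without FR104, by the interaction of the limma fit, for AATK (-1.91), CISH (-2.46), TCF7 (-1.34), TOX (-1.38), EOMES (-2.54), GPR183 (-1.99), TAGAP (-1.96), ATP5IF1 (0.75) and PCDH8 (2.06). Each of these genes lost the call without FR104.F animal 23, and all but PCDH8 lost it with the mean of probe sets.

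Outside the gene measurements, 1 array of the 8 exceeded all healthy controls. The spike-in transcripts of FR104.Siro.F animal 29 averaged 12.13, against a healthy maximum of 11.53.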

How the results depend on the processing

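Of 120 genes named, 110 were called in FR104.Siro.F minus NoRx.F, and 90 of these kept call and direction under every alternative run. The other 20 lost the call in at least 1 and none reversed. Most named genes were chosen by large differences or small adjusted p in these same data. The share kept thus does not speak for called genes at large. FR104.Siro.F minus NoRx.F gave 2319 calls and 3749 with no batch term, and 1862 to 2487 with 1 array left out. With animal as a random block (replicate block, correlation 0.194) the counts were 2449, and 1 against FR104.F, 206 against Siro.F and 46 for the interaction. No animal is in both groups of a pair compared here. Animals 28, 53, 22, 13, 16 and 18 are also among the healthy controls, and for the comparisons with those controls no block was fitted. All FR104.Siro.F and FR104.F animals also gave an earlier array, which the fit over 81 arrays holds.

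FR104.Siro.F minus FR104.F gave 1 call, 13 with only the groups and healthy controls, 0 with only the groups and no batch term, 4 with the mean of probe sets, 2 with renewed quantile normalization and 2 with the spike-in covariate, which was added after the data were seen. Leaving out 1 array gave 1 to 3. FR104.Siro.F minus Siro.F gave 154 calls, 801 with no batch term, 83 with only the groups and 78 with the actin covariate, and 17 (without Siro.F animal 18) to 258 (without FR104.Siro.F animal 26) with 1 array left out. The interaction gave 32, 52 with no batch term, 11 with only the groups, 8 with the mean of probe sets and 4 with the spike-in covariate, and 1 (without FR104.F animal 23) to 167 (without NoRx.F animal 53). The causes were not tested. FR104.Siro.F shares no batch with NoRx.F or Siro.F, so those comparisons cross batches. Against NoRx.F the fitted difference was a median of 0.01 from the plain difference of means, so the batch terms moved it little. The healthy controls behind these terms differ very little between batches, so the closeness does not test for a batch effect. A batch effect that these terms do not capture cannot be told apart from the prophylaxis.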

Other observations

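Probe sets without a gene name also differed between FR104.Siro.F and NoRx.F: of 16975 tested, limma called 1473 (8.68%), of which 912 were higher. Of 19872 probe sets with 1 gene name 2851 were called (14.3%), 1077 of them higher. What the unnamed probe sets measure is not known here.

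For several genes named in the text the probe sets of a gene disagreed in sign. For MCM5 they ran from -2.04 to 0.31, for ENO1 from -0.84 to 0.58, for AATK from -0.10 to 3.21, for PSMB2 from -1.15 to 0.23, for ITGB2 from -1.01 to 0.12, for RUNX1 from -0.16 to 1.11, for UQCRC1 from -0.86 to 0.20 and for TAGAP from -0.07 to 2.42. MXD4, SREBF2 and CD28 also had probe sets of both signs. No gene named had probe sets called in opposite directions.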
